A study of Homo sapiens with 22 samples.

Results

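The SCAN domain zinc finger genes were followed through a bromouridine (BrU) chase. They were taken by symbol, as the protein-coding genes named ZSCAN or ZKSCAN with a number and at most 1 further letter, and each gene was represented by its protein-coding transcript with the highest mean count over 0-10 h. Of 28 such genes, 25 had a mean of at least 0.2 CPM, the read count of a gene relative to the total of its library, out of 17663 genes measured at that level. The last inside this limit was ZKSCAN7 at 0.215 CPM. The 3 left out were ZSCAN10 at 0.00926 CPM, ZSCAN1 at 0.00145 CPM and ZSCAN4 at 0.000652 CPM, with ZSCAN10 known from pluripotent cells and ZSCAN4 from early embryos and stem cells. Of the 25 members, 7 carried a ZKSCAN symbol, which stands for a KRAB domain beside the SCAN domain, and 18 a ZSCAN symbol.

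The SCAN domain is a leucine-rich stretch found near the amino end of a group of vertebrate transcription factors, through which these proteins pair with one another. It stands ahead of a tandem array of C2H2 zinc fingers, short folds held by a zinc ion between a pair of cysteines and a pair of histidines, which contact DNA. Where a KRAB domain is present, it is best known for repressing transcription. Messages of transcription factors often turn over quickly. ZNF598 is a ubiquitin ligase that recognises ribosomes that have run into each other on a message, and the chase was set up to ask whether its depletion alters how long messages last.

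BRIC-Seq measures how RNA made during a labelling period disappears afterwards. Cells of HEK293T, an established line derived from human embryonic kidney, carried either control short hairpin RNA (shControl) or short hairpin RNA directed at ZNF598 (shZNF598), and each of these conditions is called a hairpin from here on. They were fed 150 µM BrU for 24 h and were then kept without BrU, after which labelled RNA was pulled down with an antibody. There were 2 libraries for each hairpin at 0, 2, 4, 6 and 10 h and 1 for each at 24 h, 22 libraries in 12 groups. The sources used here do not say whether the libraries of a group came from separate cultures, or how many clones or hairpins a line stands for, so the p-values measure only the spread between these libraries.

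The 25 members were spread over 8 chromosomes (GRCh38). A cluster at chr6:28124609-28443491 held 9 of them, ZSCAN16, ZKSCAN8, ZSCAN9, ZKSCAN4, ZSCAN26, ZSCAN31, ZKSCAN3, ZSCAN12 and ZSCAN23. Chromosome 19 held 5 (ZSCAN5A, ZSCAN5B, ZSCAN5C, ZSCAN18 and ZSCAN22) and chromosome 7 held 4 (ZKSCAN5, ZSCAN25, ZKSCAN1 and ZSCAN21). The coding sequences held 2 to 14 C2H2 fingers, with a median of 6. ZSCAN18 had the fewest and ZSCAN2 the most. The SCAN domain itself was not searched for, so the symbol stands for it here.

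Some members have finger sequences that are close to one another, which limits how well their reads could be separated. The first finger that was directly followed by another is given for 7 members, which were chosen because they stand for the patterns described next: lowest levels at 10 h (the 3 ZSCAN5 genes), a closely related pair (ZKSCAN3 and ZKSCAN4), a nearly flat course (ZSCAN30) and a fall with a later return (ZSCAN22). Each stretch has 84 bases of the coding strand, taken from the GRCh38 genome, and capitals mark the codons of the cysteines and histidines that hold the zinc.
ZSCAN5A (chr19:56221911-56221994, minus strand): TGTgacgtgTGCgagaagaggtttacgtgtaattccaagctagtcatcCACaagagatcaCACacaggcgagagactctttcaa
ZSCAN5B (chr19:56190163-56190246, minus strand): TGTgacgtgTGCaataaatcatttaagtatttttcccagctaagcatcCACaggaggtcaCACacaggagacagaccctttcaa
ZSCAN5C (chr19:56208781-56208864, plus strand): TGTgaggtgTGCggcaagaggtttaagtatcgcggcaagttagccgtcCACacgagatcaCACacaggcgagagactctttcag
ZKSCAN3 (chr6:28365614-28365697, plus strand): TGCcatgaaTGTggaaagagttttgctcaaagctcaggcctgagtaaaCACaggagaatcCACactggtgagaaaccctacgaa
ZKSCAN4 (chr6:28245707-28245790, minus strand): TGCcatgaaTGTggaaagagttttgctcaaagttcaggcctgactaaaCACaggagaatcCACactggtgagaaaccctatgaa
ZSCAN30 (chr18:35253945-35254028, minus strand): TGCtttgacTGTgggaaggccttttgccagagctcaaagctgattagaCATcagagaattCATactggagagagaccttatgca
ZSCAN22 (chr19:58338658-58338741, plus strand): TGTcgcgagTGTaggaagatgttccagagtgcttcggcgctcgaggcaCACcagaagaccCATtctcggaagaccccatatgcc
ZKSCAN3 and ZKSCAN4 had the same base at 81 of these 84 positions (96.4%), and ZSCAN5A shared 82.1% with ZSCAN5C, 78.6% with ZSCAN5B, 54.8% with ZSCAN30 and 51.2% with ZSCAN22. Over the whole transcript, 11.7% of the read-length windows of ZSCAN5A also occurred in a transcript of another gene, as did 17.87% for ZSCAN5B and 19.04% for ZSCAN5C. The authors kept only reads with 1 locus, so such stretches could add no count, and a read with a mismatch could still be placed on the wrong copy. ZKSCAN3, ZKSCAN4 and ZKSCAN7 had 7.75%, 3.98% and 7.49% of such windows. Exons of other genes lay on the opposite strand of 45.1% of ZSCAN18, 43.8% of ZSCAN21, 35.9% of ZSCAN2, 15.4% of ZSCAN16 and 14.1% of ZKSCAN7, and whether strand was used in the counting is not given in the sources used here, so reads of such a gene and its opposite partner may not have been told apart.

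The libraries held 52352359 to 96963584 counts over 0-10 h, and 21220829 (shControl) and 40157613 (shZNF598) at 24 h. A member had between 1 and 2230 counts in a library, so the counting error was small for ZKSCAN8 and large for ZSCAN5B, ZSCAN5C and ZKSCAN7. Levels are CPM after TMM scaling, which sets the bulk of each library to 1 common level, so a change over the chase is relative to that bulk and no absolute half-life is given. Replicate libraries had an r of 0.9885 to 0.9959 across genes, except the shControl pair at 0 h with 0.9763. Of the HEK293T markers, VIM, INA, NEFL and NEFM were present and PAX2 was nearly absent (0.0103 to 0.091 CPM), and of the markers of other cells PTPRC, CD3E, ALB and PECAM1 were at 0 or near it while COL1A1 had 0.629 to 1.36 CPM and GFAP 0.013 to 0.592. In the shControl pair at 0 h, replicate 1 over replicate 2 ran from -0.59 to 0.76 log2 units among the members. Where leaving out 1 of these libraries changed a call of a named value, the value without it is given beside it.

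ZNF598 itself was examined first. It had 6.33 and 7.96 CPM at 0 h, 6.15 and 6.92 at 2 h, 6.45 and 6.01 at 4 h, 5.44 and 5.61 at 6 h and 5.35 and 3.98 at 10 h in shControl. In shZNF598 it had 0.711 and 0.985 CPM at 0 h, 0.586 and 0.665 at 2 h, 0.416 and 0.46 at 4 h, 0.714 and 0.981 at 6 h and 0.876 and 1.02 at 10 h. All shZNF598 libraries were below all shControl libraries, with a mean log2 difference of -3.05 ± 0.09 over the 5 times (edgeR quasi-likelihood test, adjusted p = 1.34e-19). At 24 h the single libraries had 4.62 and 2.23 CPM.

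Per kilobase of transcript, ZKSCAN8 (2.04 CPM per kb), ZKSCAN1 (1.88) and ZKSCAN5 (1.84) had the highest mean levels over 0-10 h, and ZKSCAN7 (0.0622) the lowest. The exons of ZKSCAN1 are known to form an abundant circular RNA as well, and linear and circular forms cannot be told apart in these counts. In shControl, ZKSCAN8 had 28.5 and 18.5 CPM at 0 h, 14.6 and 16.9 at 2 h, 8.2 and 8 at 4 h, 7.48 and 6.77 at 6 h and 10.4 and 9.62 at 10 h. ZKSCAN1 had 24.6 and 15.6 CPM at 0 h, 19 and 20.3 at 2 h, 14 and 12.4 at 4 h, 11.9 and 10.6 at 6 h and 13.3 and 13.3 at 10 h. ZKSCAN5 had 12 and 13.1 CPM at 0 h, 9.06 and 10.4 at 2 h, 4.55 and 5.26 at 4 h, 4.05 and 4.43 at 6 h and 4.27 and 4.43 at 10 h. All 3 had their highest mean at 0 h and their lowest at 6 h, and at 0 h the shControl libraries of ZKSCAN8 and ZKSCAN1 were far apart. In shZNF598, ZKSCAN5 had 13.7 and 13.7 CPM at 0 h, 9.13 and 9.46 at 2 h, 5.51 and 5.37 at 4 h, 4.95 and 4.31 at 6 h and 3.98 and 4.6 at 10 h.

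**Figure D1:**
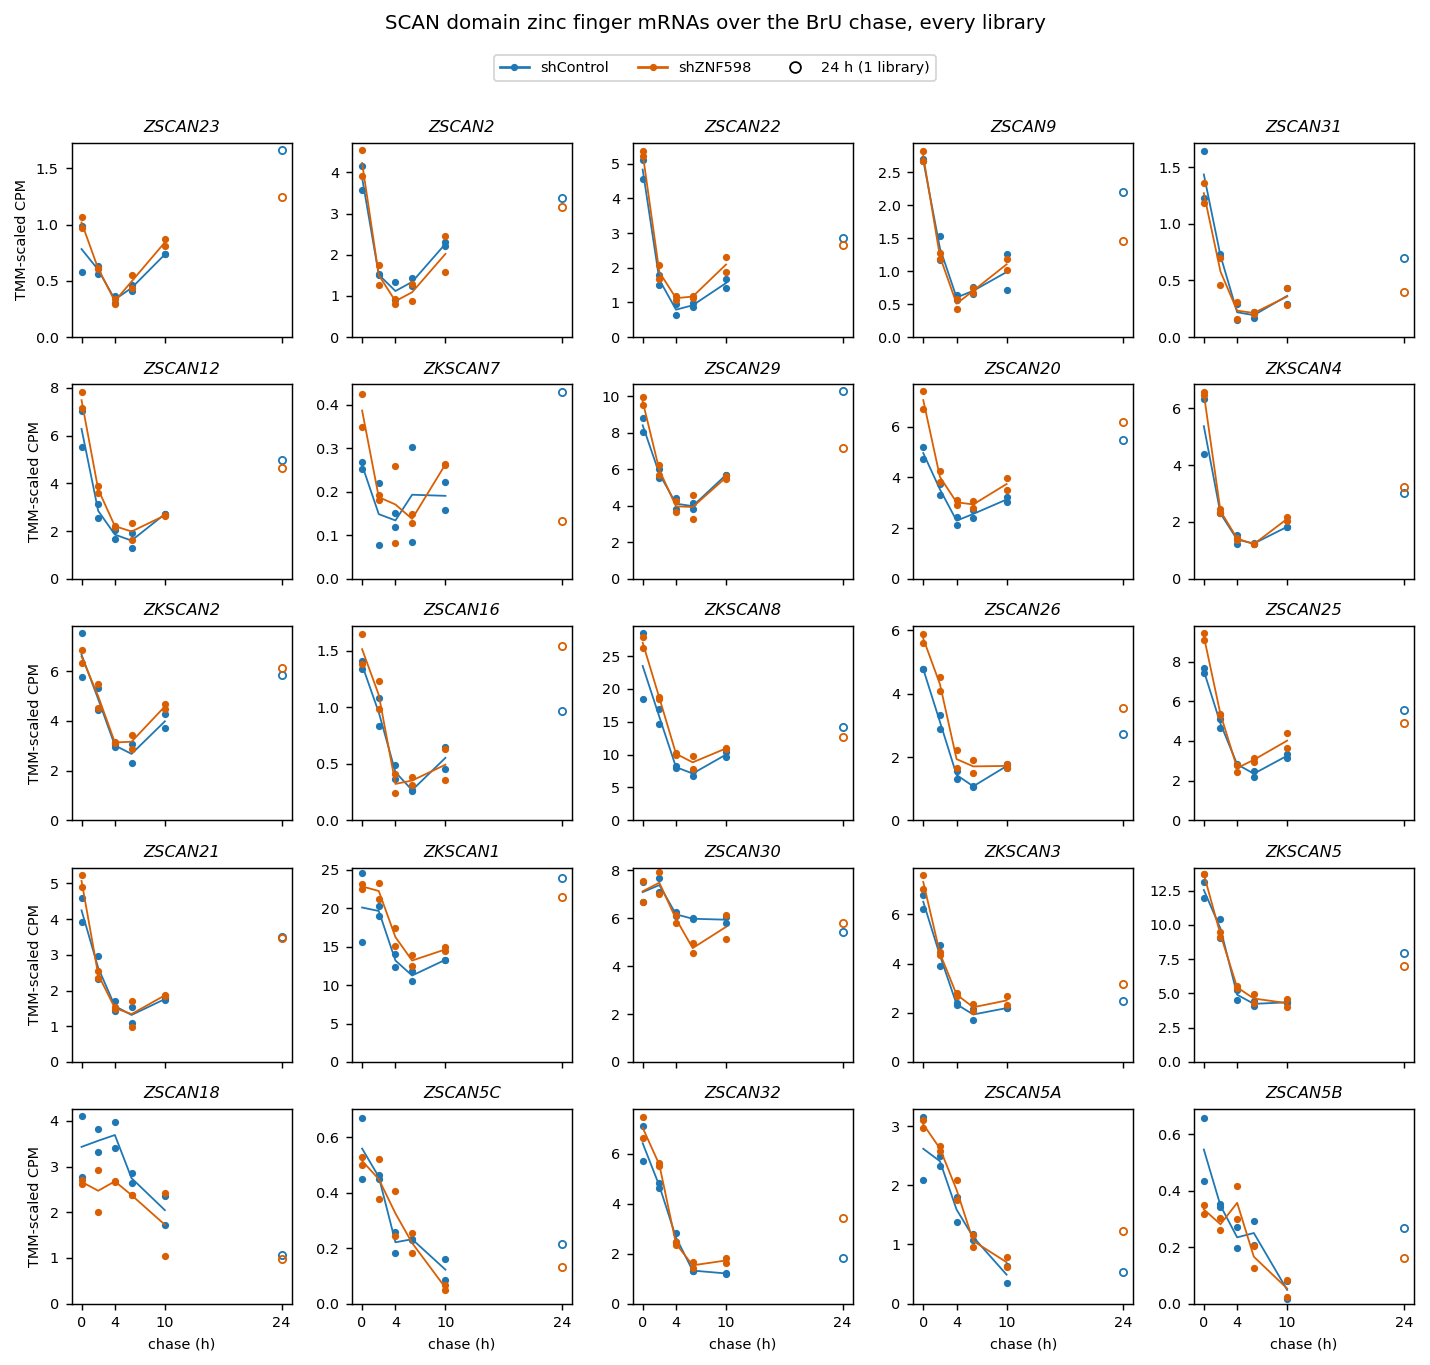
TMM-scaled CPM (y axis, from 0, own scale for each gene) against hours of chase (x axis) for the 25 members, ordered by their change from 4 to 10 h in shControl. Filled points are libraries, lines join the means of 2 libraries, open circles are the single 24 h libraries. Most genes fall until 4 or 6 h, and the 5 genes of the bottom row have lower means at 10 h than at 4 h.

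The first question was how the labelled messages of these genes changed over the chase. After 4 h without BrU, nearly all had lost ground against the bulk. Of 25 members, 22 were lower at 4 h than at 0 h in shControl and none was higher, where 25.9% of all genes tested were lower and 23.1% higher (edgeR quasi-likelihood test, adjusted p under 0.05 over all genes). The median change of the members was -1.356 log2 units, beside 0.041 over all genes. In shZNF598 it was 21 of 25, with a median of -1.417, where 26.4% of all genes were lower and 19.9% higher, with a median of 0.012. In both hairpins 20 members fell, a count that was not made over all genes. Whichever single library was left out, 20 to 22 members were lower in shControl and 18 to 22 in shZNF598. With library totals alone the medians of all genes were -0.167 and -0.163, and 23 members were lower in each hairpin. Under that scaling 5977 and 5802 of all 17663 genes were lower. The 4 h and 10 h contrasts were chosen after the courses had been seen, because many were not straight.

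The deepest early falls in shControl were those of ZSCAN31, ZSCAN22 and ZSCAN9. ZSCAN31 had 1.23 and 1.64 CPM at 0 h, 0.733 and 0.703 at 2 h, 0.289 and 0.15 at 4 h, 0.22 and 0.168 at 6 h and 0.291 and 0.437 at 10 h in shControl, so that 15.3% of the 0 h level was left at 4 h. Its change at 4 h was -2.69 ± 0.32 (SE, adjusted p = 9.69e-08). ZSCAN22 had 5.12 and 4.55 CPM at 0 h, 1.51 and 1.8 at 2 h, 0.947 and 0.639 at 4 h, 0.975 and 0.862 at 6 h and 1.69 and 1.43 at 10 h, which left 16.4% at 4 h. Its change was -2.60 ± 0.18 (SE, adjusted p = 1.31e-11). ZSCAN9 had 2.7 and 2.67 CPM at 0 h, 1.17 and 1.53 at 2 h, 0.566 and 0.639 at 4 h, 0.755 and 0.652 at 6 h and 1.26 and 0.716 at 10 h, and changed by -2.15 ± 0.22 (SE, adjusted p = 6.99e-09). In all 3 genes every library of 4 h lay below every library of 0 h and 2 h, in both hairpins. In shZNF598 the changes of these genes at 4 h were -2.48 ± 0.32, -2.23 ± 0.17 and -2.41 ± 0.22 (SE).

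All 9 genes of the chromosome 6 cluster fell by 4 h in both hairpins, by 1.22 to 2.69 log2 units in shControl and by 1.42 to 2.48 in shZNF598. They include ZKSCAN3, known as a repressor of autophagy genes, which had 6.23 and 6.8 CPM at 0 h, 3.91 and 4.76 at 2 h, 2.38 and 2.31 at 4 h, 2.16 and 1.7 at 6 h and 2.19 and 2.19 at 10 h in shControl and changed by -1.47 ± 0.14 (SE, adjusted p = 3.11e-09). Its relative ZKSCAN4 had 4.4 and 6.35 CPM at 0 h, 2.3 and 2.3 at 2 h, 1.22 and 1.54 at 4 h, 1.26 and 1.22 at 6 h and 1.83 and 1.83 at 10 h and changed by -1.96 ± 0.16 (SE, adjusted p = 2.5e-10). ZSCAN21, known for acting on the promoter of the alpha-synuclein gene, lies on chromosome 7 and changed by -1.44 ± 0.19 (SE, adjusted p = 6.59e-07). Among the 7 ZKSCAN genes 6 fell in shControl and 7 in shZNF598 (medians -1.356 and -1.333), and among the 18 ZSCAN genes 16 and 14 fell (medians -1.374 and -1.619). The 7, and the 21 of 25 members lower in shZNF598, include ZKSCAN7. Its mean of 0.215 CPM lay just above the limit of 0.2, and its highest mean was at 0 h in both hairpins. The limit itself therefore favoured a fall from 0 h in this gene. ZKSCAN7 was called in shZNF598 only, at -1.10 ± 0.45 (SE, adjusted p = 0.0456), against -0.95 ± 0.50 (SE, adjusted p = 0.12) in shControl, and the difference between the hairpins was not called. This call rested on few counts: without the first 4 h library of shZNF598 the change was -2.23, and without the second it was -0.58 with an adjusted p of 0.349.

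ZSCAN5B and ZSCAN5C were called lower at 4 h in shControl only. ZSCAN5B changed by -1.22 ± 0.35 (SE) in shControl and 0.12 ± 0.35 in shZNF598. Without the second 0 h library of shControl the first value was -0.89. ZSCAN5C changed by -1.33 ± 0.34 and -0.63 ± 0.32, and the difference between the hairpins was called for neither gene. ZSCAN18 and ZSCAN30 were not called lower at 4 h in either hairpin. ZSCAN18, a gene with only 2 fingers and known for promoter methylation in carcinomas, had 2.76 and 4.1 CPM at 0 h, 3.82 and 3.31 at 2 h, 3.97 and 3.41 at 4 h, 2.86 and 2.63 at 6 h and 2.36 and 1.73 at 10 h in shControl. Its change at 4 h was 0.11 ± 0.22 (SE, adjusted p = 0.714), and it was lower at 10 h than at 4 h, with a change of -0.85 ± 0.24 (SE, adjusted p = 0.00341). ZSCAN30 had 7.5 and 6.67 CPM at 0 h, 7.09 and 7.67 at 2 h, 6.08 and 6.24 at 4 h, 6 and 5.95 at 6 h and 5.81 and 6.06 at 10 h, and in shZNF598 7.56 and 6.68 CPM at 0 h, 7.02 and 7.94 at 2 h, 6.14 and 5.79 at 4 h, 4.96 and 4.54 at 6 h and 6.15 and 5.12 at 10 h. It stayed between 5.81 and 7.67 CPM in shControl over 0-10 h, and its change at 4 h was -0.20 ± 0.12 (SE, adjusted p = 0.183). In ZKSCAN1 the fall at 4 h in shControl was the smallest of those called there, -0.60 ± 0.14 (SE, adjusted p = 0.00109), and was -0.24 (adjusted p = 0.144) without the first 0 h library of shControl. Without that library the change of ZSCAN23 was -0.79 rather than -1.22, still called.

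After 4 h the courses parted. In shControl 8 members were higher at 10 h than at 4 h, 4 were lower and 13 were not called, where 28.5% of all genes were higher and 32.4% lower. In shZNF598 8 were higher and 6 lower, where 29% of all genes were higher and 29.7% lower. The members' medians were 0.308 and 0.299, beside -0.066 and -0.012 over all genes. ZKSCAN2, ZSCAN2, ZSCAN9, ZSCAN22, ZSCAN23 and ZSCAN29 were higher in both hairpins, joined by ZSCAN12 and ZSCAN20 in shControl and by ZKSCAN4 and ZSCAN25 in shZNF598. These increases depended on the scaling. Library totals alone shifted the median of all genes to -0.591 in shControl and -0.476 in shZNF598. With them none of the 25 was higher in shControl, where 2560 of all 17663 genes were. In shZNF598 3 were (ZSCAN2, ZSCAN9 and ZSCAN23), where 2636 of all genes were. Without the first shControl library of 4 h, or without the first of 10 h, 5 members were higher in shControl. ZSCAN2, ZSCAN22 and ZSCAN23 kept their call in shControl whichever single library was left out, while ZKSCAN2, ZSCAN9, ZSCAN12, ZSCAN20 and ZSCAN29 each lost it at least once. In shZNF598 ZSCAN29 was the 1 gene that lost its call, without the first 4 h library.

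ZSCAN23 and ZSCAN2 showed the largest increases. ZSCAN23 had 0.985 and 0.581 CPM at 0 h, 0.562 and 0.637 at 2 h, 0.303 and 0.367 at 4 h, 0.412 and 0.462 at 6 h and 0.735 and 0.736 at 10 h in shControl and 1.07 and 0.97 CPM at 0 h, 0.612 and 0.605 at 2 h, 0.343 and 0.298 at 4 h, 0.555 and 0.434 at 6 h and 0.876 and 0.81 at 10 h in shZNF598. Both 10 h libraries exceeded both 4 h libraries in each hairpin, and the change from 4 to 10 h was 1.13 ± 0.29 (SE, adjusted p = 0.0014) in shControl and 1.39 ± 0.28 (SE, adjusted p = 0.000136) in shZNF598. ZSCAN2 had 3.58 and 4.15 CPM at 0 h, 1.5 and 1.53 at 2 h, 0.908 and 1.33 at 4 h, 1.25 and 1.43 at 6 h and 2.22 and 2.31 at 10 h in shControl. It changed by 1.02 ± 0.22 (SE, adjusted p = 0.000338) from 4 to 10 h, and by 1.17 ± 0.23 (SE, adjusted p = 0.000114) in shZNF598. In ZSCAN22 the change was 0.98 ± 0.21 (SE, adjusted p = 0.00023) in shControl. In ZSCAN9 it was 0.73 ± 0.25 (SE, adjusted p = 0.0135), and without the first shControl library of 10 h it was 0.25 with an adjusted p of 0.509. The 4 h libraries enter both the early and the late change, so a low 4 h value lowers the first and raises the second.

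ZSCAN32 and ZSCAN5A were lower at 10 h than at 4 h in both hairpins. In shZNF598 the mean of ZSCAN32 was lowest at 6 h, with 1.53 CPM, and was 1.73 CPM at 10 h. ZSCAN5A, ZSCAN5B and ZSCAN5C are neighbouring copies on chromosome 19, and ZSCAN32 lies at chr16:3382085-3401004. ZSCAN32 had 5.72 and 7.12 CPM at 0 h, 4.62 and 4.81 at 2 h, 2.83 and 2.46 at 4 h, 1.32 and 1.32 at 6 h and 1.2 and 1.21 at 10 h in shControl. In shZNF598 it had 7.47 and 6.61 CPM at 0 h, 5.51 and 5.61 at 2 h, 2.45 and 2.34 at 4 h, 1.65 and 1.41 at 6 h and 1.64 and 1.81 at 10 h. ZSCAN5A had 2.09 and 3.15 CPM at 0 h, 2.49 and 2.33 at 2 h, 1.38 and 1.8 at 4 h, 1.07 and 1.18 at 6 h and 0.342 and 0.636 at 10 h in shControl, and its libraries of 10 h were below all earlier ones. ZSCAN32 was likewise lower at 4 h than at 2 h and lower again at 6 h, with no overlap, in both hairpins. In shZNF598 ZSCAN5A had 3.1 and 2.97 CPM at 0 h, 2.58 and 2.67 at 2 h, 2.09 and 1.76 at 4 h, 1.16 and 0.958 at 6 h and 0.612 and 0.786 at 10 h. From 4 to 10 h ZSCAN32 changed by -1.13 ± 0.17 (SE, adjusted p = 1.87e-06), and ZSCAN5A by -1.72 ± 0.27 (SE, adjusted p = 3.46e-06). In shZNF598 these changes were -0.48 ± 0.16 (SE, adjusted p = 0.0125), and -1.49 ± 0.25 (SE, adjusted p = 9.78e-06). The early fall of ZSCAN5A in shControl, -0.72 ± 0.20 (SE, adjusted p = 0.0042), was -0.39 (adjusted p = 0.137) without the second 0 h library and -0.54 (adjusted p = 0.0834) without the first 4 h library. The later fall of ZSCAN32 in shZNF598 was not called without the first 4 h library (-0.45, adjusted p = 0.064) or the first 10 h library (-0.40, adjusted p = 0.11).

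ZSCAN5B had 0.435 and 0.657 CPM at 0 h, 0.342 and 0.352 at 2 h, 0.197 and 0.272 at 4 h, 0.206 and 0.294 at 6 h and 0.0171 and 0.0795 at 10 h in shControl and 0.318 and 0.349 CPM at 0 h, 0.26 and 0.302 at 2 h, 0.416 and 0.298 at 4 h, 0.127 and 0.205 at 6 h and 0.0826 and 0.0238 at 10 h in shZNF598. ZSCAN5C had 0.448 and 0.67 CPM at 0 h, 0.464 and 0.45 at 2 h, 0.184 and 0.258 at 4 h, 0.233 and 0.231 at 6 h and 0.0855 and 0.159 at 10 h in shControl and 0.529 and 0.5 CPM at 0 h, 0.378 and 0.52 at 2 h, 0.406 and 0.244 at 4 h, 0.254 and 0.183 at 6 h and 0.0661 and 0.0477 at 10 h in shZNF598. Both were lowest at 10 h in each hairpin. From 4 to 10 h ZSCAN5B changed by -2.30 ± 0.61 (SE, adjusted p = 0.00197) in shControl, which was -3.65 without the second 10 h library and -1.54 (adjusted p = 0.0639) without the first, and by -2.60 ± 0.54 (SE, adjusted p = 0.000174) in shZNF598. ZSCAN5C changed by -2.47 ± 0.52 (SE, adjusted p = 0.000231) in shZNF598, and its value in shControl, -0.87 ± 0.48 (SE, adjusted p = 0.117), was not called. Among the other members, ZSCAN18 fell after 4 h in both hairpins and ZKSCAN5 in shZNF598 only. The ZSCAN18 change in shZNF598, -0.69 ± 0.25 (SE, adjusted p = 0.0213), was -0.15 (adjusted p = 0.637) without the first 10 h library and -1.36 without the second, and in shControl it was -0.65 (adjusted p = 0.0714) without the second 10 h library. The ZKSCAN5 change in shZNF598, -0.35 ± 0.13 (SE, adjusted p = 0.0247), fell short of the threshold without either 4 h library (adjusted p = 0.0951 and 0.0697) or without the first 10 h library (0.22).

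**Figure D2:**
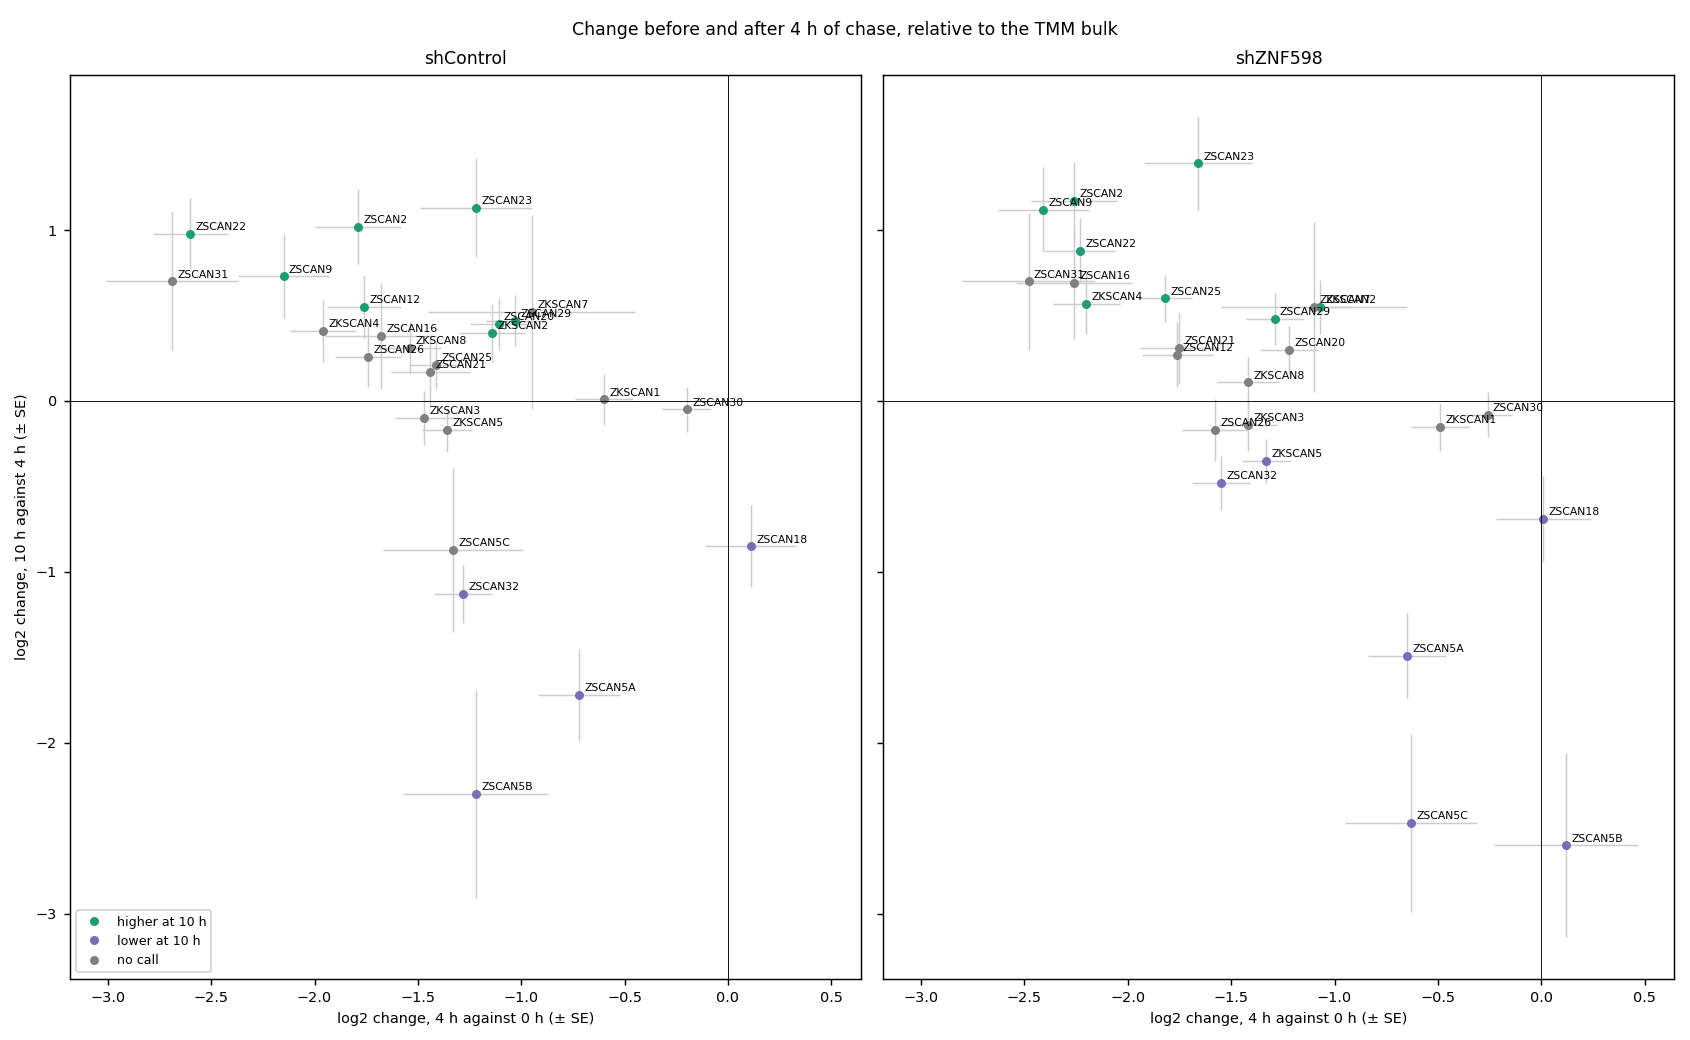
Log2 change from 0 to 4 h (x axis) against log2 change from 4 to 10 h (y axis) of the 25 members in shControl (left) and shZNF598 (right), with bars for the standard error and colours for the call of the later change. ZSCAN32, ZSCAN18 and the ZSCAN5 genes lie below 0 on the y axis in both panels, and ZSCAN23, ZSCAN2, ZSCAN22 and ZSCAN9 lie near the top of both. With library totals alone in place of TMM scaling, no member was called higher at 10 h in shControl and 3 were in shZNF598. Of all 17663 genes, 2560 and 2636 were.

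At 24 h, with 1 library for each hairpin and no test, 23 of 25 members were above their 10 h mean in shControl and 23 in shZNF598. The same count was not made over all genes, so this rise cannot be called particular to the members. The 24 h level was a median of 70.3% of the 0 h mean in shControl and 53.1% in shZNF598, against 41.5% and 39.5% at 10 h. It was lowest for ZSCAN5A in shControl (20.5%) and for ZSCAN5C in shZNF598 (25.9%), and highest for ZSCAN23 in both (212% and 123%). These percentages are relative to the bulk of each library. A share above 100% is therefore a level above that of 0 h against the bulk, not an absolute one.

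A straight line over 0-10 h, with TMM scaling and all 20 libraries, gave every member a negative slope in both hairpins. Of all 17663 genes, 10135 had a negative slope in shControl and 9975 in shZNF598. The shControl slope of ZSCAN23 turned to 0.006 with DESeq2 size factors and 0.008 by DESeq2, and without the first 0 h library that of ZSCAN23 was 0.035 and that of ZKSCAN7 0.006. The slope was called negative, which with TMM scaling is a loss faster than that of the bulk, for 19 of 25 members in shControl, where 38.7% of all genes were, and for 19 in shZNF598, where 36.4% were. In both hairpins 16 were called, again without such a count over all genes. The median slope was -0.13 log2 per h in shControl and -0.135 in shZNF598, beside -0.026 and -0.021 over all genes. ZSCAN5B (-0.285 ± 0.053 SE, adjusted p = 7.42e-05), ZSCAN32 (-0.265 ± 0.036 SE, adjusted p = 1.65e-06) and ZSCAN5A (-0.250 ± 0.028 SE, adjusted p = 9.92e-08) were the steepest in shControl. ZSCAN23 (-0.011 ± 0.047 SE, adjusted p = 0.852), ZKSCAN7 (-0.021 ± 0.059 SE, adjusted p = 0.767) and ZSCAN30 (-0.032 ± 0.016 SE, adjusted p = 0.0859) were the shallowest, and of these ZSCAN30 was nearly flat while ZSCAN23 fell and returned. In shControl ZKSCAN7 had 0.269 and 0.253 CPM at 0 h, 0.22 and 0.0769 at 2 h, 0.118 and 0.15 at 4 h, 0.302 and 0.0841 at 6 h and 0.222 and 0.159 at 10 h, and in shZNF598 0.424 and 0.349 CPM at 0 h, 0.182 and 0.193 at 2 h, 0.26 and 0.0812 at 4 h, 0.127 and 0.148 at 6 h and 0.264 and 0.262 at 10 h. Libraries of neighbouring times overlapped from 2 h on in shControl. Over 2-10 h the slope in shControl was called negative for 6020 of all 17663 genes, and over 0-24 h for 2554. In these windows the members were not called more often than all genes. The number of members called in shControl was 12 without the second 0 h library, 7 over 2-10 h and 3 over 0-24 h.

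The second question was whether depleting ZNF598 changed these courses. No member had a different slope between the hairpins by the edgeR quasi-likelihood test, where 0.0396% of all genes did. None did by DESeq2 either, where 1 of all 17663 genes had a higher slope in shZNF598 and 39 a lower one. By edgeR no member reached an unadjusted p under 0.05. The differences, shZNF598 minus shControl, ran from -0.049 to 0.076 log2 per h with a median of -0.007, beside 0 over all genes, and their standard errors from 0.023 to 0.098. Every adjusted p was 1. They were widest for ZSCAN5B (0.076 ± 0.080 SE), ZSCAN5C (-0.049 ± 0.058) and ZSCAN32 (0.035 ± 0.048). Each moved with single libraries of 10 h: that of ZSCAN5B was 0.026 without the first of shControl and 0.121 without the second of shZNF598, that of ZSCAN5C was -0.019 without the second of shControl, and that of ZSCAN32 was 0.001 without the second of shZNF598. For ZSCAN30, the most precisely measured, the difference was -0.016 ± 0.023.

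**Figure D3:**
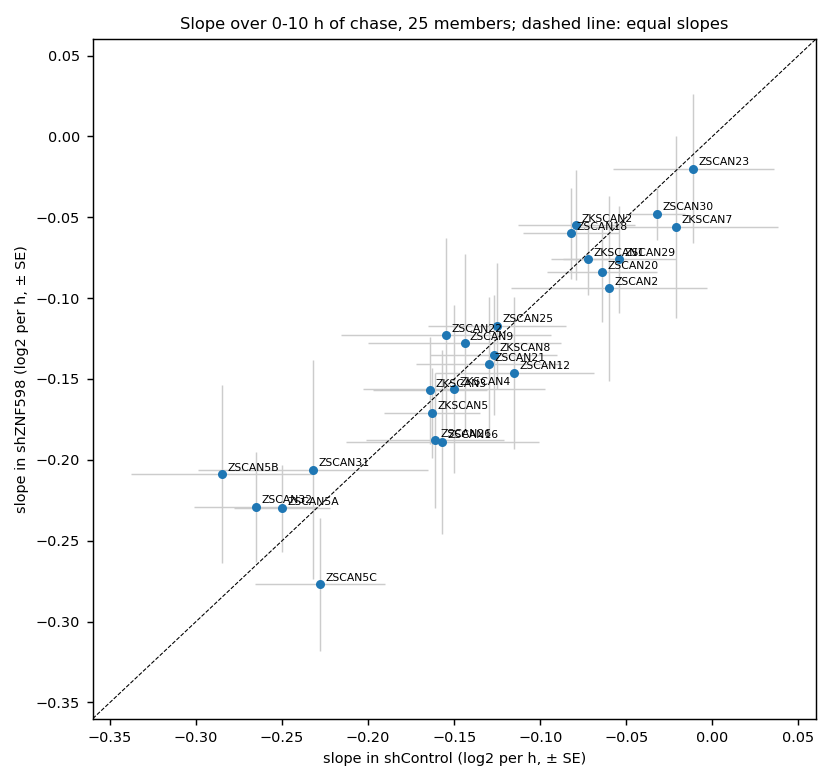
Slope of each of the 25 members over 0-10 h of chase in shControl (x axis) and shZNF598 (y axis), in log2 units per hour relative to the bulk, with bars for the standard error. The points lie along the dashed line of equal slopes, from ZSCAN5B at -0.285 and -0.209 to ZSCAN23 at -0.011 and -0.020.

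By edgeR no member was called different between the hairpins in its change at 4 h or in its later change, where 0.017% and 0.0566% of all genes differed. By DESeq2 none was called either. There 8 of all 17663 genes were lower in shZNF598 for the change at 4 h, and 12 were higher and 27 lower for the later change. At an unadjusted p under 0.05 by edgeR there were 2 members for each change, beside 417 and 1238 of all 17663 genes. For the change at 4 h they were ZSCAN5B, with 1.33 ± 0.49 (SE) log2 units more in shZNF598, and ZSCAN25, with -0.40 ± 0.18. For the change from 4 to 10 h they were ZSCAN32 with 0.65 ± 0.24 and ZSCAN5C with -1.60 ± 0.77. In ZSCAN32 both shZNF598 libraries of 10 h (1.64 and 1.81 CPM) were above both of shControl (1.2 and 1.21), and the adjusted p of the difference in change was 0.592.

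At the end of labelling, before the chase, no member was called different between the hairpins by edgeR, where 0.651% of all genes were. By DESeq2 none was either, where 36 of all 17663 genes were higher in shZNF598 and 108 lower. The median difference was 0.168 log2 units, beside 0.03 over all genes, and 20 of 25 members were above 0, as were 9881 of all 17663 genes. Unadjusted p-values were under 0.05 for 3 members, ZSCAN20, ZSCAN25 and ZSCAN5B, beside 1890 of all 17663 genes, a like share. The differences farthest from 0 were those of ZSCAN5B (-0.71 ± 0.33 SE, adjusted p = 0.44), ZKSCAN7 (0.56 ± 0.43 SE, adjusted p = 0.679) and ZSCAN20 (0.51 ± 0.13 SE, adjusted p = 0.0748). That of ZSCAN5B was -0.98 without the first shControl library of 0 h and -0.38 without the second. For ZSCAN20 both shZNF598 libraries were above both of shControl, 6.69 and 7.4 against 5.18 and 4.73 CPM. The level of ZKSCAN7, the lowest of the members, rests on few counts. Without the first 0 h library of shControl, ZKSCAN1 and ZKSCAN8 were called, and without the second ZKSCAN4 was.

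Averaged over the 5 times, the level of 8 members differed. Of these 7 were higher in shZNF598, where 12.4% of all genes were, and 1 was lower, where 10% were. The median difference was 0.109 log2 units, beside 0.024 over all genes. The differences were small beside the course over time, 0.2 to 0.36 log2 units among the higher members. These are differences in labelled RNA relative to the bulk, and a level by itself carries no rate. Without the 0 h libraries 6 members were called, where 2055 of all 17663 genes were higher and 1740 lower.

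ZSCAN26 had the largest increase. It had 4.78 and 4.78 CPM against 5.9 and 5.59 at 0 h, 2.9 and 3.33 against 4.08 and 4.53 at 2 h, 1.32 and 1.55 against 1.65 and 2.22 at 4 h, 1.1 and 1.05 against 1.9 and 1.51 at 6 h and 1.78 and 1.65 against 1.65 and 1.79 at 10 h, shControl given first. The shZNF598 libraries were higher without overlap at 4 of 5 times, and the mean difference was 0.36 ± 0.08 (SE, adjusted p = 0.0011). ZSCAN20 had 5.18 and 4.73 CPM against 6.69 and 7.4 at 0 h, 3.3 and 3.75 against 4.23 and 3.8 at 2 h, 2.13 and 2.45 against 3.11 and 2.92 at 4 h, 2.73 and 2.38 against 3.08 and 2.78 at 6 h and 3.03 and 3.22 against 3.49 and 3.98 at 10 h. It was higher without overlap at all 5 times, with a mean difference of 0.31 ± 0.06 (SE, adjusted p = 0.000994). ZSCAN22 had 5.12 and 4.55 CPM against 5.37 and 5.23 at 0 h, 1.51 and 1.8 against 2.07 and 1.68 at 2 h, 0.947 and 0.639 against 1.18 and 1.07 at 4 h, 0.975 and 0.862 against 1.14 and 1.2 at 6 h and 1.69 and 1.43 against 1.88 and 2.31 at 10 h. Its libraries were apart at 4 of 5 times, all but 2 h, and the mean difference was 0.31 ± 0.08 (SE, adjusted p = 0.00933).

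ZKSCAN8 had 28.5 and 18.5 CPM against 27.9 and 26.2 at 0 h, 14.6 and 16.9 against 18.5 and 18.8 at 2 h, 8.2 and 8 against 9.96 and 10.3 at 4 h, 7.48 and 6.77 against 9.85 and 7.81 at 6 h and 10.4 and 9.62 against 10.9 and 11 at 10 h. The libraries overlapped at 0 h and were apart at the 4 other times, and the difference was 0.24 ± 0.07 (SE, adjusted p = 0.00973). ZSCAN25 had 7.41 and 7.65 CPM against 9.11 and 9.43 at 0 h, 4.63 and 5.11 against 5.36 and 5.33 at 2 h, 2.85 and 2.79 against 2.46 and 2.81 at 4 h, 2.51 and 2.19 against 2.95 and 3.15 at 6 h and 3.35 and 3.16 against 3.65 and 4.38 at 10 h. It was higher without overlap at 4 of 5 times, with 4 h as the exception, and differed by 0.20 ± 0.06 (SE, adjusted p = 0.0175), or by 0.17 (adjusted p = 0.0835) without the 0 h libraries and 0.2 (adjusted p = 0.0682) with no filter on low counts. ZKSCAN1 had 24.6 and 15.6 CPM against 23.2 and 22.5 at 0 h, 19 and 20.3 against 21.2 and 23.3 at 2 h, 14 and 12.4 against 17.4 and 15.1 at 4 h, 11.9 and 10.6 against 13.9 and 12.5 at 6 h and 13.3 and 13.3 against 14.9 and 14.4 at 10 h, overlapping at 0 h alone, and differed by 0.21 ± 0.06 (SE, adjusted p = 0.0223). Its adjusted p passed 0.05 without 1 of 4 libraries, namely the first shControl library of 2 h (0.0512), the second of 4 h (0.0543), the second of 6 h (0.0536), or the first shZNF598 library of 4 h (0.0556), and with library totals alone (0.0535).

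ZSCAN12 had 7.02 and 5.54 CPM against 7.15 and 7.82 at 0 h, 2.54 and 3.15 against 3.61 and 3.88 at 2 h, 2.04 and 1.66 against 2.23 and 2.18 at 4 h, 1.9 and 1.3 against 2.35 and 1.61 at 6 h and 2.72 and 2.7 against 2.69 and 2.62 at 10 h. The shZNF598 libraries were above those of shControl at 3 of 5 times and below them at 10 h. The call of its difference, 0.23 ± 0.08 (SE, adjusted p = 0.0472), was lost in 15 of 20 fits that left out 1 library, with values from 0.17 to 0.29, with library totals alone (adjusted p = 0.0867) and by DESeq2 (adjusted p = 0.0504). ZSCAN18 was the member that was lower in shZNF598. It had 2.76 and 4.1 CPM against 2.62 and 2.71 at 0 h, 3.82 and 3.31 against 2.93 and 2.01 at 2 h, 3.97 and 3.41 against 2.66 and 2.69 at 4 h, 2.86 and 2.63 against 2.38 and 2.37 at 6 h and 2.36 and 1.73 against 1.04 and 2.41 at 10 h. The shZNF598 libraries were below those of shControl at 4 of 5 times and overlapped at 10 h, and the difference was -0.38 ± 0.11 (SE, adjusted p = 0.0115). ZSCAN18 is also the member with the largest share of its exons opposite another gene.

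**Figure D4:**
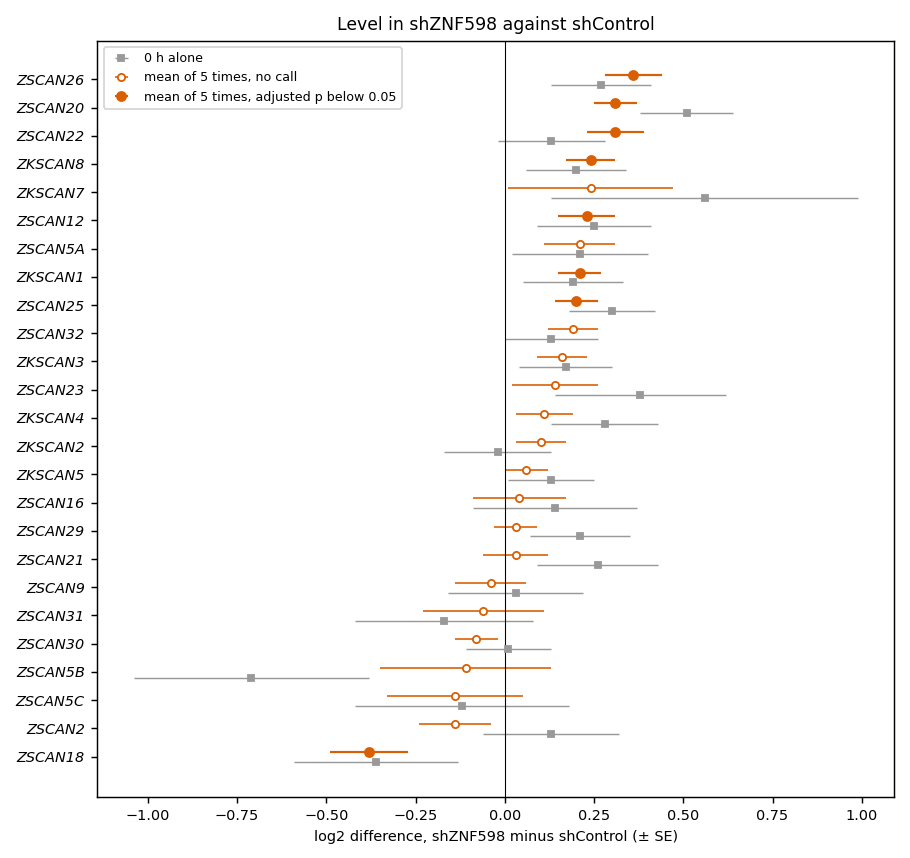
Log2 difference of each member, shZNF598 minus shControl (x axis, with bars for the standard error), at 0 h alone (grey squares) and as the mean over 5 chase times (orange circles, filled where the adjusted p was under 0.05). The 7 filled circles right of 0 run from 0.20 for ZSCAN25 to 0.36 for ZSCAN26, and ZSCAN18 is at -0.38.

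Other zinc finger lists were set beside the members without a test. Of 27 SCAN domain genes with other symbols, 26 were measured, and 23 of these were lower at 4 h in shControl (median -0.909), as were 178 of 197 ZNF genes on chromosome 19 (median -1.443), 164 of 205 ZNF genes elsewhere (median -1.064) and 37 of 40 ZBTB genes (median -1.492), beside 22 of 25 members (median -1.356). Among the other SCAN genes MZF1 was the 1 called higher at 4 h, by 0.68 ± 0.23 (SE, adjusted p = 0.014). The slope in shControl was called negative for 18 of the 26 other SCAN genes and 33 of 40 ZBTB genes. It was also called negative for 127 of 197 ZNF genes on chromosome 19 and 123 of 205 elsewhere, beside 19 of 25 members. None of the other SCAN genes had a different slope or 0 h level between the hairpins. Over the mean of 5 times, 3 of the 26 were higher in shZNF598, where 12.4% of all genes were, and none was lower. The 3 were ZNF24 (0.41 ± 0.06 SE, adjusted p = 4.14e-06), ZNF396 (0.45 ± 0.15, adjusted p = 0.0324) and PGBD1 (0.24 ± 0.07, adjusted p = 0.0097). In mean level, 44 of 205 ZNF genes elsewhere (21.5%) and 8 of 40 ZBTB genes (20%) were also higher, beside 28% of the members. On chromosome 19, 14 of 197 ZNF genes (7.11%) were higher. In these 3 lists 10, 4 and 22 genes were lower.

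**Figure D5:**
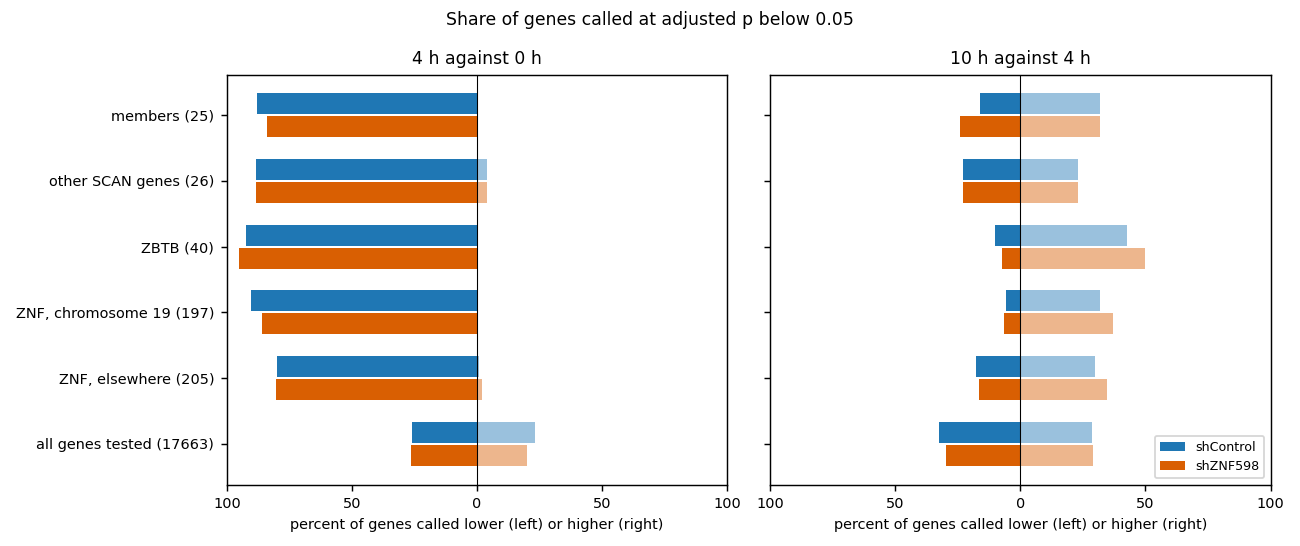
Percent of genes called lower (bars to the left) or higher (bars to the right) at 4 h against 0 h (left panel) and at 10 h against 4 h (right panel), in shControl (blue) and shZNF598 (orange), with the number of genes measured in brackets. The calls of higher at 10 h depend on TMM scaling. At 4 h, 88% and 84% of the members were called lower, against 25.9% and 26.4% of all genes.

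Genes known for short-lived and for stable messages framed these courses. The 5 short-lived references that were measured of 6 listed (MYC, JUN, FOS, IER2, ATF3 and ID1 were listed) were all lower at 4 h, with a median of -2.729 in shControl, and all higher again at 10 h than at 4 h. The 6 stable references (GAPDH, ACTB, RPLP0, RPS3, EEF1A1 and TUBA1B) all had positive slopes, with a median of 0.204 log2 per h. The slopes of the short-lived references ran from -0.165 to 0.070 in shControl, with a median of -0.146. Only 2 of these 5 were called negative in shControl and 1 in shZNF598. The slope over 0-10 h thus missed messages known to be short-lived. The members' median at 4 h lay between those of both groups, the stable one being at 0.493. With TMM scaling the stable references were also all called higher at 10 h than at 4 h in shControl, with a median of 1.359 beside 1.356 for the short-lived ones, so the later increase did not set the groups apart.

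How far the number of fingers went with these values is given as a description over the 25 genes, which share their libraries and, in clusters, their neighbourhood. Spearman's rho of the number of fingers was 0.28 with the slope in shControl, -0.23 with the change at 4 h, 0.33 with the later change, -0.33 with the slope difference and 0.46 with the mean level difference. For the length of transcript after the stop codon, rho with the same 5 values was 0.34, 0, 0.23, 0.12 and 0.41. For the net charge of the encoded protein per 100 residues it was -0.54, -0.08, -0.39, 0.12 and 0.04. ZSCAN18, with 2 fingers and the lowest mean level difference, lies at the end of the relation between fingers and level.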

How the data were processed

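BRIC-Seq libraries of HEK293T cells with shControl or shZNF598 were analysed from the deposited counts. The authors trimmed reads with fastp, removed noncoding RNA and aligned to hg38 with STAR 2.7.0a, and deposited whole-number counts per GENCODE transcript from featureCounts, in which a read adds to each isoform it overlaps. CASAVA 1.8 is named in the submitters' processing notes. Identifiers were matched to GENCODE release 44 (98.35% of 227264, unmatched ones holding 2.24% of counts). Each gene was represented by 1 transcript, and 17663 genes with a mean CPM of at least 0.2 were tested. The 20 libraries of 0-10 h were fitted with edgeR 4.0.16 (quasi-likelihood test, TMM scaling, R 4.3.3), with Benjamini-Hochberg adjustment over all genes and a threshold of 0.05, as slopes over time for each hairpin and as group means. The changes from 0 to 4 h and from 4 to 10 h were added after seeing the data. SE is the log2 value over the square root of its F. Printed CPM were scaled over all 22 libraries. Spike-ins added by the authors were not used. The pipeline was tested on simulated counts with 200 changed genes and a dispersion of 0.02. Of these, 81.5% were recovered at a slope difference of 0.15 log2 per h. At 0 h, 63.5% were recovered for a difference of 1 log2 unit, and 14.5% for a mean level difference of 0.3. Slope differences as small as those of the members were not simulated, so the absence of calls does not exclude them. Alternatives were DESeq2 1.42.0, other scalings, filters, transcripts, time windows, a replicate block and leaving out each library, and those without the 0 h libraries or with unmatched identifiers kept were added after seeing the data. The members and lists were chosen with earlier results of these data known. Values were given for the members called between the hairpins, for the 3 steepest, the 3 shallowest and the 3 highest per kilobase, and for the 3 largest differences of slope and of 0 h level, and other members were named after their values were seen. Read-length windows were all 50-base stretches of a transcript.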

Additional observations from a re-analysis of the deposited data

How the results depend on the processing

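Limits. Depth limits ZKSCAN7, ZSCAN5B and ZSCAN5C, which had few counts, and changes are relative to the bulk of each library. Over 0-24 h and 2-10 h, 2554 and 6020 of all 17663 genes were below the bulk in shControl. In shZNF598 they were 2366 and 5632. Slopes depended most on the times used: the number of members below the bulk in shControl was 19, and was 3 over 0-24 h, 7 over 2-10 h, 7 in replicate 1 of every group alone and 9 in replicate 2 alone. In shZNF598 it was 19, and 2, 8, 7 and 8. Leaving out 1 library gave 12 to 19 in shControl and 13 to 22 in shZNF598, 0 to 2 members for the 0 h level, 5 to 10 members higher at 10 h in shControl and 8 to 10 in shZNF598, and 6 to 9 members for the mean level. With library totals alone, 0 members were higher at 10 h in shControl and 3 in shZNF598, where 2560 and 2636 of all genes were. In shControl this turned the direction of ZKSCAN2 (-0.12), ZSCAN20 (-0.08) and ZSCAN29 (-0.06).

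The median slope difference was -0.0073 log2 per h, and -0.0376 to 0.0217 without 1 library, 0.0032 over 0-6 h, 0.0096 over 2-10 h and 0.0042 in replicate 2 alone. The slope difference of ZSCAN32 turned to -0.059 over 0-4 h and -0.014 over 0-6 h, and that of ZSCAN5C to 0.161 and 0.043. The shControl slope of ZKSCAN7 was -0.051 to 0.006 without 1 library, 0.036 over 0-24 h and 0.063 over 2-10 h. That of ZSCAN23 was -0.042 to 0.035 without 1 library, 0.053 over 0-24 h, 0.058 over 2-10 h, 0.022 in replicate 2 alone, 0.006 with DESeq2 size factors and 0.008 by DESeq2. ZNF598 was at -3.16 in replicate 1 alone, -2.87 in replicate 2 alone and -3.11 to -3.01 without 1 library. The cause of these shifts was not tested.

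By DESeq2, 15 members were below the bulk in each hairpin, where 5890 and 5528 of all 17663 genes were. At 4 h 22 and 20 were lower, beside 4001 and 3970 of all genes. At 10 h 10 and 9 were higher, beside 5461 and 5307. In mean level 7 differed, beside 2044 higher and 1674 lower of all genes. The replicate numbers did not pair the libraries throughout. Correlations of deviations were -0.327 to 0.427 over 45 pairs of groups, with a median of 0.029 and 16 of them over 0.1. These values do not settle whether some groups were paired, and the main fits had no replicate term. With the replicate number as a block, 19 and 17 members were below the bulk, where 6769 and 6373 of all 17663 genes were. At 4 h 22 and 21 members were lower, beside 4651 and 4733 of all genes. At 10 h 8 and 8 members were higher, beside 5096 and 5192. In mean level 8 members differed, beside 2343 higher and 1854 lower of all genes. In slope or at 0 h 0 members differed, beside 7 genes lower in slope and, at 0 h, 34 higher and 114 lower. The members' median slope difference was -0.0079 and ZNF598 was at -3.06. Of the values for single genes under all alternatives, 2642 kept their direction and side of the threshold or moved by less than the spread, 84 were no longer called, 3 became called, 40 moved and 16 turned.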
